A study of Mus musculus with 2 samples.

Results

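A group of 10 transcription factor genes that act downstream of antigen receptor and calcium signals in T cells is described here: the orphan nuclear receptors Nr4a1, Nr4a2 and Nr4a3, the zinc finger factors Egr1, Egr2 and Egr3, the calcium-regulated factors Nfatc1, Nfatc2 and Nfatc3, and the interferon regulatory factor Irf4. They were chosen by gene symbol, and all 10 were found among the 55246 loci of the count table. The libraries came from Treg cells, the CD4 lineage that restrains immune responses and needs the factor Foxp3, taken from the lamina propria (the tissue under the epithelium) of the colon of female mice. The labels name 1 library WT, the wild-type genotype, and 1 library Exon2KO, a Foxp3 allele without exon 2 that the series title calls Foxp3∆2. No treatment is given in the labels, and age, strain, the number of animals behind a library and the sorting scheme are not given in the sources used here. There was 1 library of each genotype, so the spread between samples is unknown, no test between genotypes was possible, and every interval below is a 95% interval for counting error in these 2 libraries alone. Reads that share a source molecule cannot be recognised here, and the intervals do not allow for them.

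When a T cell receptor meets antigen, calcium enters the cell and the phosphatase calcineurin removes phosphates from NFAT proteins, which then move into the nucleus. The ERK kinase branch acts with serum response factor to switch on the EGR genes within minutes, and the NR4A genes are immediate early genes as well, so their transcript levels are often read as a trace of recent receptor signalling. IRF4 is made in proportion to the strength of that signal and binds DNA with AP-1 factors such as BATF. In Treg cells NR4A factors are known to maintain Foxp3 transcription and lineage identity, NFAT binds DNA together with Foxp3, and IRF4 is required for effector Treg cells.

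Gene-assigned reads numbered 16281133 for WT and 15412425 for Exon2KO. A comparison was made for the 17363 loci with at least 10 reads over both libraries, and all 10 factors were among them. The log2 ratio is Exon2KO over WT after TMM library scaling with a prior count of 2, and its median over these loci was 0.0035, with an interquartile range of -0.33 to 0.35. Of the 10 factors, 1 was at least 2-fold lower and 0 were at least 2-fold higher in the Exon2KO library, against 8.14% lower and 9.38% higher among all loci compared. Among loci with at least 100 reads, as 9 of the 10 factors had, the shares were 4.44% and 3.79%. Their median log2 ratio was -0.02, and 6 of them lay inside the interquartile range of all loci. The counting interval lay wholly below 0 for 3 factors and wholly above 0 for 2, against 24.6% and 22.8% of all loci, and it covered 0 for 5. Intervals narrow as reads rise, and 9 of the 10 factors had at least 100 reads, so these shares are not matched for depth. No share at matching depth was computed for intervals. Among the 5 whose interval covered 0 were Nr4a3, Egr1, Egr2 and Nfatc3. Their ratios were so near 0 that the sign turned when libraries were scaled by total counts. The interval counts given here are for TMM scaling. Total counts raised ratios by 0.11, which takes the interval of Egr1, with a lower limit of -0.08, wholly above 0.

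The 8 general T cell markers had summed levels of 4495 CPM (counts scaled to library size) in WT and 4014 in Exon2KO, none of them differed by 2-fold, and their ratios ran from -0.44 to 0.20, with 5 intervals wholly below 0 and 2 wholly above. The 8 Treg markers did not share a direction, with 4 at least 2-fold lower and 2 at least 2-fold higher, and none of them had 0 reads in either library. Foxp3, the altered gene, was counted 6991 times in WT and 20946 times in Exon2KO, which does not check the label because the rest of the gene remains. Summed epithelial markers were 89.9 CPM in WT and 339 in Exon2KO, and 6 of the 8 were at least 2-fold higher. The sums for 4 gamma-delta T cell markers were 9.30 and 70.4 CPM, with 3 of the 4 at least 2-fold higher. Summed CD8 and cytotoxic markers were at 3196 and 4053 CPM, most of it from Gzmb at 2772 and 3981 CPM, while the other 5 of the 6 were lower, 3 of them at least 2-fold. Summed myeloid markers were at 55.6 and 63.5 CPM, B cell markers at 135 and 107, and stromal and endothelial markers at 75.3 and 69.3. Of the 6 mast cell markers, 4 had 0 reads in WT and 5 in Exon2KO. In bulk RNA, fewer cells of a type and less RNA per cell cannot be told apart, and the part of these other cells in the results below was not tested.

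The NR4A genes encode nuclear receptors that need no ligand, and their activity was not measured here. Their promoters are shown because these 3 genes differed most among themselves within a family and share a short motif. The sequences are RefSeq's, on GRCm38.p6, in the direction of transcription. Capitals mark TGACG or its reverse complement CGTCA, the core of the cAMP response element that CREB and ATF factors bind. The Nr4a1 stretch is chr15:101266596-101266845 on the plus strand and the Nr4a2 stretch is chr2:57124004-57124253 on the minus strand, both ending at the base before a RefSeq transcript start. The Nr4a3 stretch is chr4:48045055-48045152 on the plus strand, which stops where the first annotated GENCODE exon begins.
Nr4a1: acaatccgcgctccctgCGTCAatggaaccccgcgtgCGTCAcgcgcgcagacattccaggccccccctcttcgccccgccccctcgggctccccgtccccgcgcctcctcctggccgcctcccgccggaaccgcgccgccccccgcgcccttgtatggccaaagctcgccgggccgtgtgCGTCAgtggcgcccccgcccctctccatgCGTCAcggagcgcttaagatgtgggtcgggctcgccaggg
Nr4a2: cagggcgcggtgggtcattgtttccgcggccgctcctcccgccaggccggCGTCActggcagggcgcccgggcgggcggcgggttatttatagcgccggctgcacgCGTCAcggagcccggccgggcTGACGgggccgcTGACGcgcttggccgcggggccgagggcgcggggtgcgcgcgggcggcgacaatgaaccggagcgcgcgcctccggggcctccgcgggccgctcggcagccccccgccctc
Nr4a3: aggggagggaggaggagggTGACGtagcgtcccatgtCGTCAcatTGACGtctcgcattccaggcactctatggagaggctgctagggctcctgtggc
In the 250 bases before the RefSeq start, each of the 3 NR4A genes held 4 copies of the motif on either strand. For Nr4a3 the stretch above shows 3 of them, and the other one lies in the part of its window that is annotated exon and is not printed. A window of that length held at least 1 copy for 17.8% of the 32851 transcript starts in the RefSeq table, at least 3 copies for 0.688% and at least 4 for 0.137%. Those shares are over windows of any base content. G and C made up 74.4% of the Nr4a1 window, 80% of the Nr4a2 window and 63.6% of the Nr4a3 window, and the motif itself contains CG. The NR4A promoters were picked for print with the motif already seen in them, so these shares describe how common it is and test nothing. Of the other 4 factors with a window, Egr2 held 2 copies in 3 of its 5 windows, Nfatc3 held 1 copy in 1 of its 2 windows, and Nfatc2 and Irf4 held 0. The palindrome TGACGTCA, which contains both of those 5-base motifs, was in 1.55% of all windows and in none of the 3 NR4A windows. The motif is thus a property the 3 genes share in these windows, and whether it bears on their reads was not tested. A match in the letters is a description of the sequence and does not show binding.

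Nr4a1 (ENSMUSG00000023034, also known as Nur77, chromosome 15, 101254269 to 101274795 on the plus strand, GRCm38) is the member most used as a reporter of receptor signalling. Its reads numbered 13655 in WT against 8931 in Exon2KO. Its deposited level was 247 FPKM (reads scaled to gene length and depth; 243 to 251) in WT and 160 FPKM (157 to 163) in Exon2KO. These levels placed it at rank 261 and rank 396 of all loci by FPKM, and it was the highest of the 10 factors in both libraries. The log2 ratio was -0.64 (-0.68 to -0.60), so that the Exon2KO level was 64.2% of the WT level, short of the 2-fold mark. Its ratio stood at the 13.9th percentile of all loci compared.

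Nr4a2 (ENSMUSG00000026826, also known as Nurr1, chromosome 2, 57106830 to 57124003 on the minus strand) had the lowest ratio of the 10. Its count was 2130 in WT and 229 in Exon2KO. The level was 33.3 FPKM (31.9 to 34.7) in WT and 3.55 FPKM (3.10 to 4.04) in Exon2KO, and the rank among all loci went from 1824 to 7484. The log2 ratio was -3.23 (-3.45 to -3.05), a 9.40-fold lower level in the Exon2KO library. Of the 17363 loci compared, 104 had a ratio at or below it, Nr4a2 included. Nr4a2 was the only one of the 10 factors with an adjusted p-value below 0.05 in the authors' deposited table, at 3.35e-10, against 1029 of the 22447 genes, or 4.58%, in that table. The log2 fold change in the authors' deposited table was -3.24. The p-values in the authors' deposited table rest on no measured spread, since each group is 1 library. They were within 1% of those from edgeR's exact test with an assumed relative spread between samples (biological coefficient of variation) of 0.2 for 100% of the 22447 genes that have one.

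Nr4a3 (ENSMUSG00000028341, also known as Nor1, chromosome 4, 48045153 to 48086447 on the plus strand) had nearly the same count in both libraries, 1784 in WT and 1792 in Exon2KO. Its level was 18.9 FPKM (18.03 to 19.8) in WT and 18.8 FPKM (17.95 to 19.7) in Exon2KO. The log2 ratio of -0.02 had an interval from -0.12 to 0.08, which leaves no difference detectable with this many reads under TMM scaling. Scaling to the 8 T cell markers, an alternative chosen after the data were seen, gave 0.14 and takes the interval wholly above 0.

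The 3 NR4A genes were compared with each other through the odds ratio of their reads, which does not depend on library scaling. The log2 ratio of Nr4a2 lay 3.22 (3.003 to 3.45) below that of Nr4a3 and 2.60 (2.40 to 2.81) below that of Nr4a1, and that of Nr4a1 lay 0.62 (0.52 to 0.72) below that of Nr4a3. Nr4a2 therefore passed from above Nr4a3 to below it, with 1.76 times the FPKM of Nr4a3 in WT and 0.188 times in Exon2KO. Summed over the family the level was 299 FPKM in WT and 182 FPKM in Exon2KO. Nr4a1 held 82.5% of that sum in WT and 87.7% in Exon2KO. The share of Nr4a2 was 11.1% in WT and 1.94% in Exon2KO, and that of Nr4a3 was 6.32% and 10.3%. Nr4a1 thus stayed the main NR4A transcript, and Nr4a3 stood above Nr4a2 in the Exon2KO library only.

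**Figure D1:**
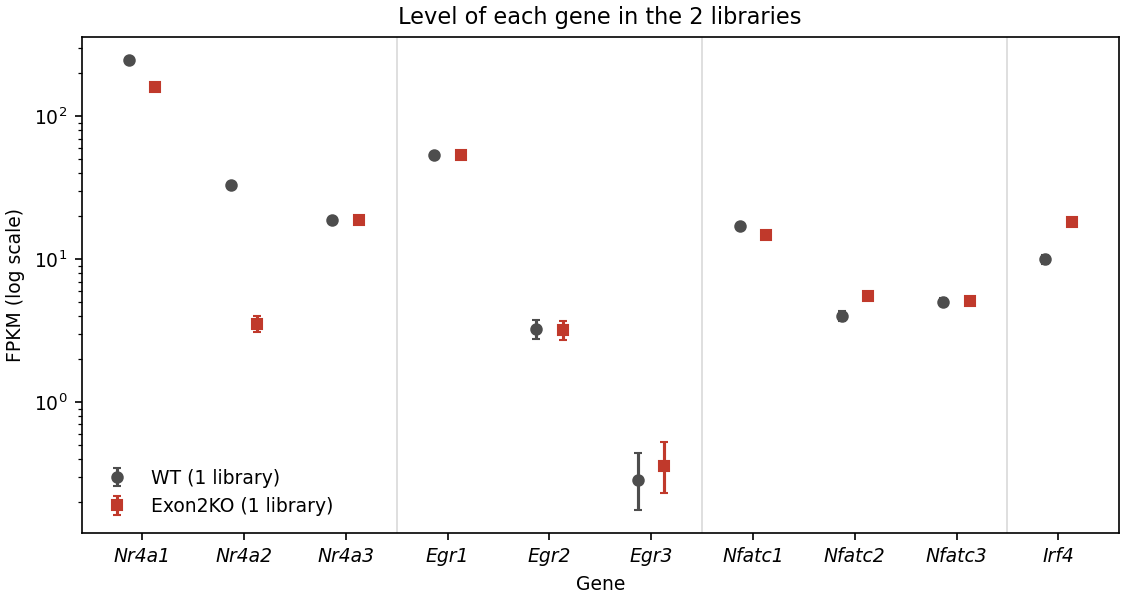
Level of each of the 10 genes in FPKM (log axis) in the WT library (grey circles) and the Exon2KO library (red squares), with 95% exact Poisson intervals for counting error. Nr4a2 shows the widest gap, 33.3 against 3.55 FPKM, while the 3 EGR genes sit at nearly the same height in both libraries.

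The EGR genes, which encode zinc finger factors, did not show the pattern of Nr4a2. Egr1 (ENSMUSG00000038418, chromosome 18, 34859823 to 34864984 on the plus strand), the family member that ERK signals induce fastest in many cell types, had 3818 reads in WT and 3858 in Exon2KO. That is 54.0 FPKM (52.3 to 55.7) in WT and 54.1 FPKM (52.4 to 55.8) in Exon2KO, and the log2 ratio was -0.01 (-0.08 to 0.05). Egr1 was the second highest of the 10 factors in both libraries.

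Egr2 (ENSMUSG00000037868, chromosome 10, 67535475 to 67542188 on the plus strand) restrains T cell activation and takes part in anergy. It had 174 reads in WT and 172 in Exon2KO, or 3.25 FPKM (2.78 to 3.77) and 3.18 FPKM (2.72 to 3.69). Its log2 ratio was -0.04 (-0.36 to 0.27). Egr3 (ENSMUSG00000033730, chromosome 14, 70077203 to 70082614 on the plus strand), which shares functions with Egr2, was the lowest of the 10 factors, with 20 reads in WT and 25 in Exon2KO. At 0.288 and 0.357 FPKM, its log2 ratio of 0.27 had an interval of -0.61 to 1.22, which admits a 2-fold difference upward, and the reads are too few to show a smaller one.

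Egr1 held 93.9% of the summed EGR level in each library, Egr2 5.64% in WT and 5.52% in Exon2KO, and Egr3 0.50035% and 0.619%. The intervals of all 3 differences of log2 ratio between EGR genes covered 0, from the narrowest for Egr1 against Egr2 (0.03, -0.29 to 0.35) to the widest for Egr2 against Egr3 (-0.34, -1.32 to 0.63). Among the family genes outside the 10, Egr4 had 16 and 11 reads. The EGR corepressor genes Nab1 and Nab2 had log2 ratios of -0.37 (-0.45 to -0.30) and 0.34 (0.13 to 0.56). These 3 genes were named after their values were seen.

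**Figure D2:**
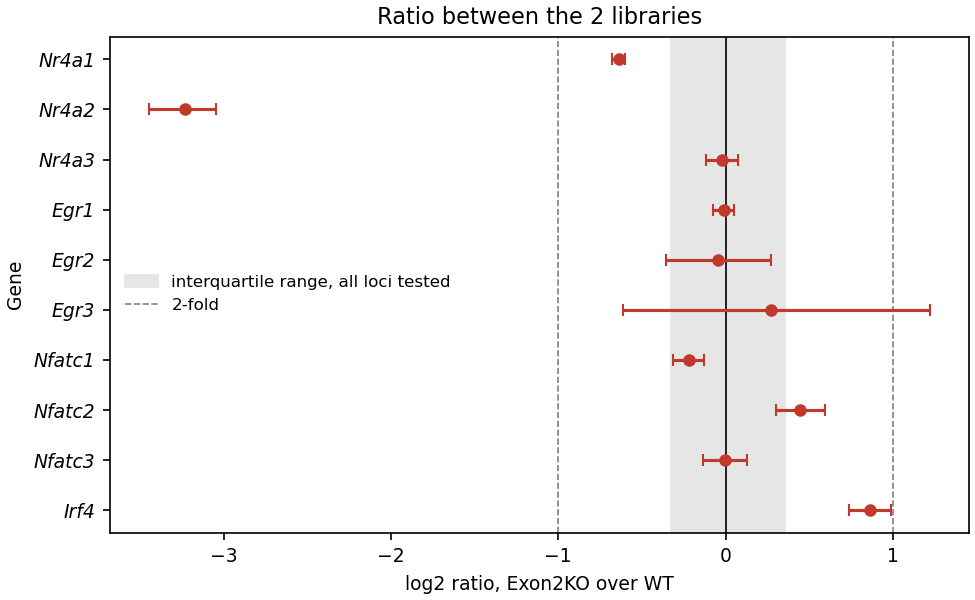
Log2 ratio of Exon2KO over WT for each gene, with the 95% counting interval of the ratio, the interquartile range of all 17363 loci compared (grey band) and the 2-fold marks (dashed lines). Nr4a2 alone lies beyond a 2-fold mark, Nr4a1 lies between the band and the lower mark, Nfatc2 and Irf4 lie between the band and the upper mark, and the interval of Egr3 crosses the upper mark.

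Under TMM scaling the NFAT genes differed by less than 1.5-fold each, and not in the same direction. Scaling to the 8 T cell markers took the log2 ratio of Nfatc2 to 0.61, just past 1.5-fold, and that of Nfatc1 to -0.056. Nfatc1 (ENSMUSG00000033016, chromosome 18, 80606205 to 80713071 on the minus strand) encodes NFAT2, whose short isoform is induced by NFAT itself. It had 2012 reads in WT and 1760 in Exon2KO, or 17.2 FPKM (16.4 to 17.9) and 14.9 FPKM (14.2 to 15.6). The log2 ratio was -0.22 (-0.31 to -0.13), lower in the Exon2KO library but inside the interquartile range of all loci. A gene-level count does not separate its isoforms.

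Nfatc2 (ENSMUSG00000027544, chromosome 2, 168476410 to 168601657 on the minus strand) encodes NFAT1, the form abundant in resting T cells. It went the other way, with 672 reads in WT and 934 in Exon2KO, or 4.03 FPKM (3.73 to 4.34) and 5.55 FPKM (5.20 to 5.92). Its log2 ratio was 0.45 (0.30 to 0.59), at the 79.0th percentile of all loci. Nfatc3 (ENSMUSG00000031902, chromosome 8, 106058840 to 106130537 on the plus strand), which encodes NFAT4, had 934 and 949 reads, 5.05 FPKM (4.73 to 5.38) in WT and 5.09 FPKM (4.77 to 5.42) in Exon2KO. Its log2 ratio was 0.00 (-0.14 to 0.13). The end of Nfatc3 shares 219 exon bases with the epithelial gene Esrp2 on the other strand, and Esrp2 had 41 and 44 reads of its own, so the reads in shared sequence are uncertain.

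The differences within the NFAT family were beyond counting error. The log2 ratio of Nfatc1 lay 0.67 (0.50 to 0.84) below that of Nfatc2 and 0.22 (0.05 to 0.38) below that of Nfatc3, while Nfatc2 lay 0.45 (0.26 to 0.65) above Nfatc3. The summed NFAT level was 26.2 FPKM in WT and 25.5 FPKM in Exon2KO, so the total differed little while its make-up did. Nfatc1 held 65.4% of it in WT and 58.3% in Exon2KO, Nfatc2 15.4% and 21.7%, and Nfatc3 19.2% and 19.9%. Nfatc4 had 0 reads in both libraries. Altogether 9 pairs were compared within the 3 families, and the interval excluded 0 for 6 of them, 3 among NR4A and 3 among NFAT genes. The 3 EGR pairs, which covered 0, each include Egr2 or Egr3, the factors with the fewest reads, so this count depends on depth. The share over other pairs of genes was not computed.

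**Figure D3:**
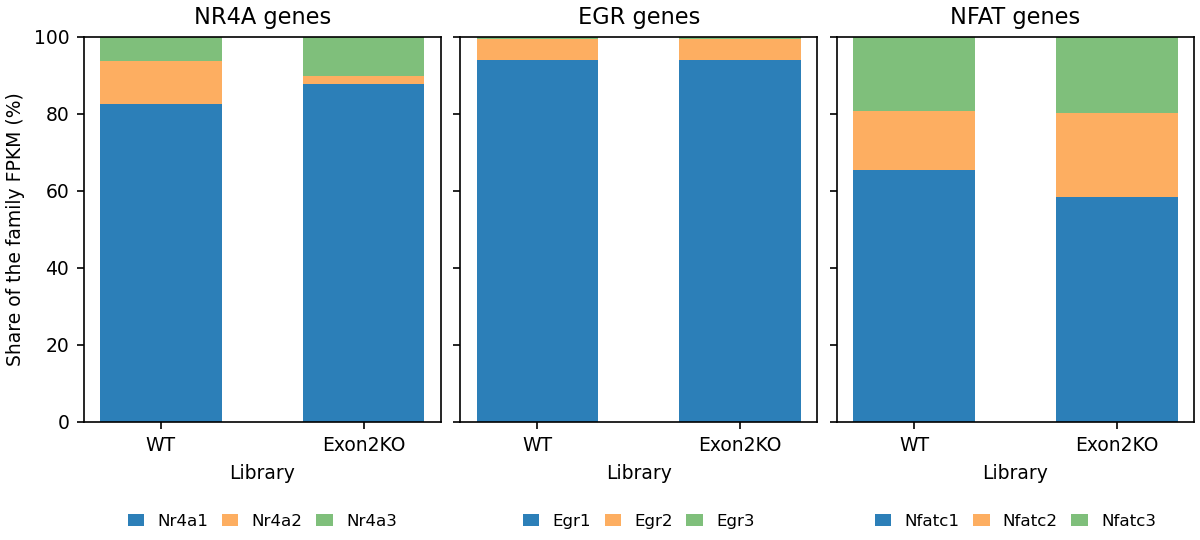
Share of the summed FPKM of each family held by its 3 genes in the WT and the Exon2KO library, as stacked bars from 0 to 100%. The Nr4a2 segment shrinks from 11.1% to 1.94%, the EGR bars are nearly identical, and the Nfatc2 segment widens from 15.4% to 21.7%.

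Irf4 (ENSMUSG00000021356, chromosome 13, 30749226 to 30766976 on the plus strand) had the highest ratio of the 10. Reads numbered 773 in WT and 1432 in Exon2KO. The level was 9.996 FPKM (9.30 to 10.7) in WT and 18.4 FPKM (17.4 to 19.3) in Exon2KO. The log2 ratio of 0.86 (0.74 to 0.99) is a 1.82-fold higher level, just short of the 2-fold mark, at the 88.6th percentile of all loci. Scaling the libraries to the summed reads of the 8 T cell markers, an alternative chosen after the data were seen, moved it past that mark, to 1.02. The authors' deposited table gives Irf4 an adjusted p-value of 0.331, the lowest of the 9 factors other than Nr4a2. Plasma cells also make Irf4, and their 6 markers summed to 8554 CPM in WT and 8091 in Exon2KO, none of them at 0 reads. Of the 6 plasma cell markers, 4 had an interval wholly below 0 and 2 wholly above. Jchain, with the most reads of these, was at -0.11 (-0.12 to -0.09), and Sdc1, which encodes syndecan-1, was the only plasma cell marker past 2-fold, at 1.22 (1.07 to 1.38). The part of plasma cells in the Irf4 count was not tested.

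In the WT library the order of levels was Nr4a1, Egr1, Nr4a2, Nr4a3, Nfatc1, Irf4, Nfatc3, Nfatc2, Egr2 and Egr3. The counting intervals of neighbours overlapped there only for Nfatc2 and Egr2. In the Exon2KO library the order was Nr4a1, Egr1, Nr4a3, Irf4, Nfatc1, Nfatc2, Nfatc3, Nr4a2, Egr2 and Egr3. Neighbours whose intervals overlapped in that library were Nr4a3 and Irf4, Nfatc2 and Nfatc3, and Nr4a2 and Egr2. Nr4a2 moved from place 3 to place 8, Irf4 from 6 to 4, Nr4a3 from 4 to 3 and Nfatc2 from 8 to 6, while the other 6 factors had the same place in both.

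The genes around these factors were described by 7 lists. For comparison with each list, 8.14% of all loci compared were at least 2-fold lower and 9.38% at least 2-fold higher. Among loci with at least 100 reads these shares were 4.44% and 3.79%. Intervals lay wholly below 0 for 24.6% of all loci and wholly above 0 for 22.8%, shares not matched to the depth of any list. Upstream of NFAT, none of the 16 genes for calcium entry and calcineurin was 2-fold higher or lower. Their median log2 ratio was -0.18, and 13 of 16 ratios were below 0, or 10 of 16 with total counts, with 1 interval wholly above 0 and 10 wholly below. The calmodulin gene Calm2 was at -0.33 (-0.36 to -0.30). Of the 12 genes for calcineurin inhibitors and kinases that return NFAT to the cytoplasm, 10 had enough reads, none differed by 2-fold, and the median was 0.16, with 2 intervals wholly above 0 and 1 wholly below. In that list Csnk1a1, a casein kinase, was at 0.04 (-0.02 to 0.09), Gsk3b at 0.11 (-0.04 to 0.27), and Rcan1, an NFAT target that feeds back on calcineurin, at 0.21 (-0.15 to 0.57). Rcan1 was named after its value was seen.

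Upstream of the EGR genes, the list of 16 SRF and ERK inputs also held no gene past 2-fold, and its median was 0.02. Ratios ran from -0.66 to 0.70 and were above 0 for 9 of the 16 and below 0 for 7, or for 4 with total counts, with 5 intervals wholly above 0 and 3 wholly below. Map2k2, which encodes MEK2, was at -0.12 (-0.20 to -0.04). Srf, the serum response factor gene, was the lowest of the list, at -0.66 (-0.94 to -0.39), from counts of 291 and 187. Srf was named after its value was seen.

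Among 25 other immediate early genes, 2 were at least 2-fold lower, none was 2-fold higher, and the median was -0.20. That count of 2 is near the share of 8.14% lower among all loci compared. Ratios were below 0 for 17 of the 25, or 14 with total counts, with 5 intervals wholly above 0 and 15 wholly below. The genes past 2-fold were Myc, a growth regulator with 1631 and 460 reads (-1.85, -2.01 to -1.70), and Klf2, a regulator of lymphocyte trafficking with 2157 and 1036 reads (-1.08, -1.19 to -0.98), which fell short of 2-fold when scaled by total counts. Junb, the AP-1 gene with the most reads of the list, was at -0.07 (-0.08 to -0.06), and the antiproliferative gene Btg1 at -0.02 (-0.04 to 0.01). Fos, named after its value was seen, was at 0.02 (-0.0023 to 0.05), close to Egr1.

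The list of 14 other family genes, mostly IRF genes, had 13 with enough reads, 1 at least 2-fold lower and none 2-fold higher, and a median of -0.25, with 1 interval wholly above 0 and 8 wholly below. Irf1 and Irf7, interferon response factors, were at -0.25 (-0.28 to -0.21) and -0.62 (-0.69 to -0.54). With total counts none of the 13 was 2-fold lower. Irf2, named after its value was seen, had the highest ratio of the other IRF genes listed, 0.08 (-0.05 to 0.22), below the interval of Irf4.

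Genes reported as targets of these factors in T cells had ratios from 1.56 down to that of a gene with 0 reads in Exon2KO. Of 27 such genes, 26 had enough reads, 8 were at least 2-fold lower and 1, Foxp3, was at least 2-fold higher, with a median of -0.63. Their intervals lay wholly above 0 for 6 and wholly below 0 for 16. This list was written with earlier results of these data known, and its counts are no independent support. The receptor genes Tnfrsf9 (4-1BB), Tnfrsf18 (GITR) and Tnfrsf4 (OX40) were at -1.62 (-1.64 to -1.60), -1.59 (-1.62 to -1.56) and -1.37 (-1.40 to -1.35). Pdcd1, which encodes PD-1, had 17272 and 2520 reads (-2.80, -2.86 to -2.74). Ikzf2, which encodes Helios, had 8476 and 440 reads (-4.29, -4.44 to -4.16), and Tox and Cd5 were at -1.39 (-1.49 to -1.29) and -1.05 (-1.11 to -0.98). With total counts 7 of the 26 were at least 2-fold lower. Nrn1, which encodes neuritin, had 74 reads in WT and 0 in Exon2KO, with its counting interval wholly below -4.32, and was named after its value was seen. By contrast Cblb, a ubiquitin ligase gene tied to EGR and NFAT activity and also named after its value was seen, was at -0.05 (-0.14 to 0.03).

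Partners and targets of IRF4 went both ways. Of 16 genes, 15 had enough reads, 4 were at least 2-fold higher and 3 at least 2-fold lower, and the median was -0.20, with 7 intervals wholly above 0 and 5 wholly below. Il10, an inhibitory cytokine gene, and Maf, which encodes a transcription factor, were at 1.46 (1.43 to 1.48) and 1.03 (0.96 to 1.10), on the same side as Irf4. Ccr8, Il1rl1 and Gata3, genes of tissue Treg cells, were at -3.79 (-3.95 to -3.65), -3.09 (-3.21 to -2.98) and -2.51 (-2.61 to -2.41). Batf, which encodes the AP-1 partner of IRF4, had 7261 and 4159 reads (-0.83, -0.89 to -0.78), opposite in direction to Irf4, and Prdm1, which encodes Blimp-1, had 628 and 1052 (0.72, 0.57 to 0.86). Both were named after their values were seen.

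**Figure D4:**
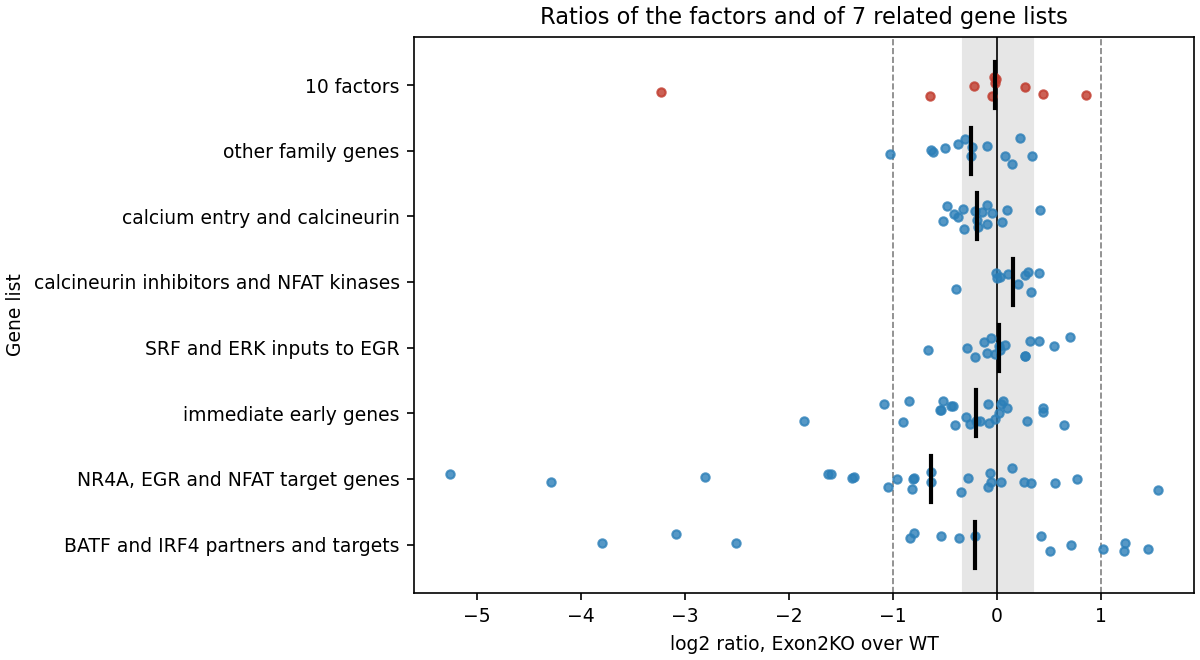
Log2 ratio of Exon2KO over WT for the 10 factors (red) and for the genes of 7 related lists with at least 10 reads (blue), with the median of each list (black bar), the interquartile range of all loci compared (grey band) and the 2-fold marks (dashed lines). The calcium, kinase and SRF lists stay within the marks, while the target lists reach from -5.26 (Nrn1, a fitted value with 0 reads in Exon2KO) to 1.56 (Foxp3).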

How the data were processed

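RNA was extracted with a Qiagen column kit, and 1 µg per sample entered an NEBNext Ultra library preparation, per the labels' protocols. The submitters' processing notes name HISAT2 2.0.5, StringTie 1.3.3b, featureCounts 1.5.0-p3, DESeq2 1.16.1 and the build mm10, without their roles. The use of strand is not given in the sources used here. Raw gene-level read counts deposited by the authors are the input to all ratios here, and their deposited FPKM values were used for levels between genes. The log2 fold changes and p-values quoted from the authors' deposited table are theirs, and a scaled count signal deposited by the authors was not used.

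Library sizes were scaled by TMM in edgeR 4.0.16 (R 4.3.3), with factors of 0.964 for WT and 1.04 for Exon2KO. Loci with at least 10 reads over both libraries were compared by log2 ratio with a prior count of 2. Intervals are Clopper-Pearson at 95% for ratios, exact Poisson for FPKM, and conditional exact for pairs of genes (scipy 1.17.1, Python 3.11.15), and the interval code was tested on simulated data. With 1 library of each genotype, no test of the genotypes was made. EdgeR's exact test with an assumed spread was run on the 2 libraries only to see how the deposited p-values were made. A depth of 16281133 and 15412425 reads leaves counting error small for most of the 10 genes and wide for Egr3. Coordinates are as deposited and equal those of GENCODE M21. Promoter windows were found for 7 of the 10 genes, with none for Egr1, Egr3 and Nfatc1. Genes of the lists could be named when at least 2-fold different with at least 100 reads in 1 library, or when among the 2 with the most reads of their list. Some list genes that met this rule are not reported here. The 10 genes and the lists were chosen with earlier results of these data known. Scalings, prior counts, read minimums and fold thresholds were varied.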

Additional observations from a re-analysis of the deposited data

How the results depend on the processing

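The ratio of Nr4a2 stayed between -3.24 and -3.07 under every scaling and prior count tried. Upper-quartile scaling, DESeq2 size factors, TMM without immunoglobulin, T cell receptor, mitochondrial and haemoglobin genes, and prior counts of 0.5 and 5 kept all 10 ratios inside their counting intervals. Total counts raised ratios by 0.11 on the log2 scale and moved the median of all loci to 0.11. Under it Nr4a1 became -0.53, Nr4a3 0.085, Egr1 0.094, Nfatc1 -0.11 and the median of the 10 genes 0.0898. Scaling to the summed reads of the 8 T cell markers, an alternative chosen after seeing the data, raised ratios by 0.16. It gave -0.48 for Nr4a1, 0.14 for Nr4a3, 0.15 for Egr1, -0.056 for Nfatc1, 0.61 for Nfatc2, 0.16 for Nfatc3 and 1.02 for Irf4, which put 1 gene, Irf4, past 2-fold higher, and a median of 0.15. The signs of Nr4a3, Egr1, Egr2 and Nfatc3 are thus set by the scaling, whereas differences within a family are free of it. Which counting intervals cover 0 also depends on the scaling. With total counts, that of Egr1 lies wholly above 0. With the T cell markers, those of Egr1, Nr4a3 and Nfatc3 lie wholly above 0, and that of Nfatc1 covers 0.

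A fold threshold of 1.5 put 1 of the 10 genes higher and 2 lower, against 2922 and 2647 of all loci, and a threshold of 4 left 499 and 408 loci. With no read minimum 2643 loci were at least 2-fold higher and 2844 lower, with at least 100 reads 413 and 484, and with protein-coding genes only 962 and 934, since each setting tests another number of loci. Family shares from counts per kilobase equal those from FPKM by construction, so that alternative tests nothing. Depth limits Egr3 most. No paired analysis was possible because a single library stands for each genotype, and no library could be left out.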
